A study of Mus musculus with 59 samples.

Results

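Tumors of mice given methylparaben were compared with tumors of mice given vehicle, by the treatment label of each library. The comparison holds 39 of the 59 libraries of the series, 20 methylparaben and 19 vehicle. The other 20 libraries came from propylparaben tumors, which entered the estimate of the spread and not the contrast. All 59 libraries were made from total RNA of flash-frozen primary mammary tumors of mice on the background B6.FVB-Tg(MMTV-PyVT)634Mul/LellJ whose genotype was PyMT (+/-), so the vehicle group carries the transgene too. In these mice the mouse mammary tumor virus promoter, active mainly in mammary epithelium, drives the polyomavirus middle T oncogene. Each library therefore describes a tumor that the oncogene started. The labels hold no dose, length of exposure or age. Whether each library came from a separate animal is not said either, so p-values measure the spread between these libraries. The series title asks about the growth and spread of mammary cancer under chronic exposure to low levels of parabens.

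Methylparaben is the methyl ester of para-hydroxybenzoic acid and is used as a preservative in cosmetics, drugs and food. Parabens are weak ligands of estrogen receptors, and esterases cleave them to para-hydroxybenzoic acid. Middle T acts at the cell membrane, where it binds Src family kinases and phosphatidylinositol 3-kinase (PI3K), and so feeds the pathways that growth factor receptors use. Luminal mammary cells, from which these tumors arise, respond to estrogen, progesterone, prolactin, insulin and insulin-like growth factor 1 (IGF1).

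The 39 libraries held 1236895 to 2015341 reads on genes each, and 16590 to 18013 genes had at least 1 read. The groups were compared on 6 library measures: depth, the scaling factor, the mitochondrial share and the reads that fell in introns, outside any feature or at several places. The smallest adjusted p-value of these was 0.379, for reads at several places (permutation test of 100000 resamples, two-sided, n = 19 and 20, Benjamini-Hochberg). Luminal markers were present in each library: the sum of the normalized counts of 14 such genes ran from 1591 to 2816 in vehicle and from 1753 to 2628 in methylparaben tumors.

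Several libraries stood apart. On the first principal component of all 59 libraries, which held 19.1% of the variance, 6 of the 7 lowest were vehicle tumors (replicates 7, 8, 10, 13, 14 and 19) and the other was propylparaben replicate 1. Methylparaben replicate 5 lay highest and was rich in fat transcripts: its 13 adipocyte markers summed to 16937 normalized counts, against a methylparaben median of 985. Methylparaben replicate 5 was also among the 5 libraries with a scaling factor under 0.9, with vehicle replicates 1 and 2 and methylparaben replicates 1 and 16. The 6 low vehicle libraries held the mitosis genes high and the adipocyte markers low. Their share of reads at several places was 12.8% to 15.8%, and that of propylparaben replicate 1 was 15.1%. In the other vehicle libraries this share was 11.4% to 13.6%, except for 15.7% in vehicle replicate 1. Methylparaben libraries held 11.8% to 13.8%. Whether this share bears on the component was not tested. Many results are therefore given with and without the 7 lowest libraries, and the others with all libraries only. A value given with all libraries only is not shown to hold without the 7. The component came from the same genes, and leaving out its low end takes mitosis-high libraries from vehicle and none from methylparaben. Genes that vary along the component then differ less between the groups in part by that choice, so such results are no independent check.

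**Figure D1:**
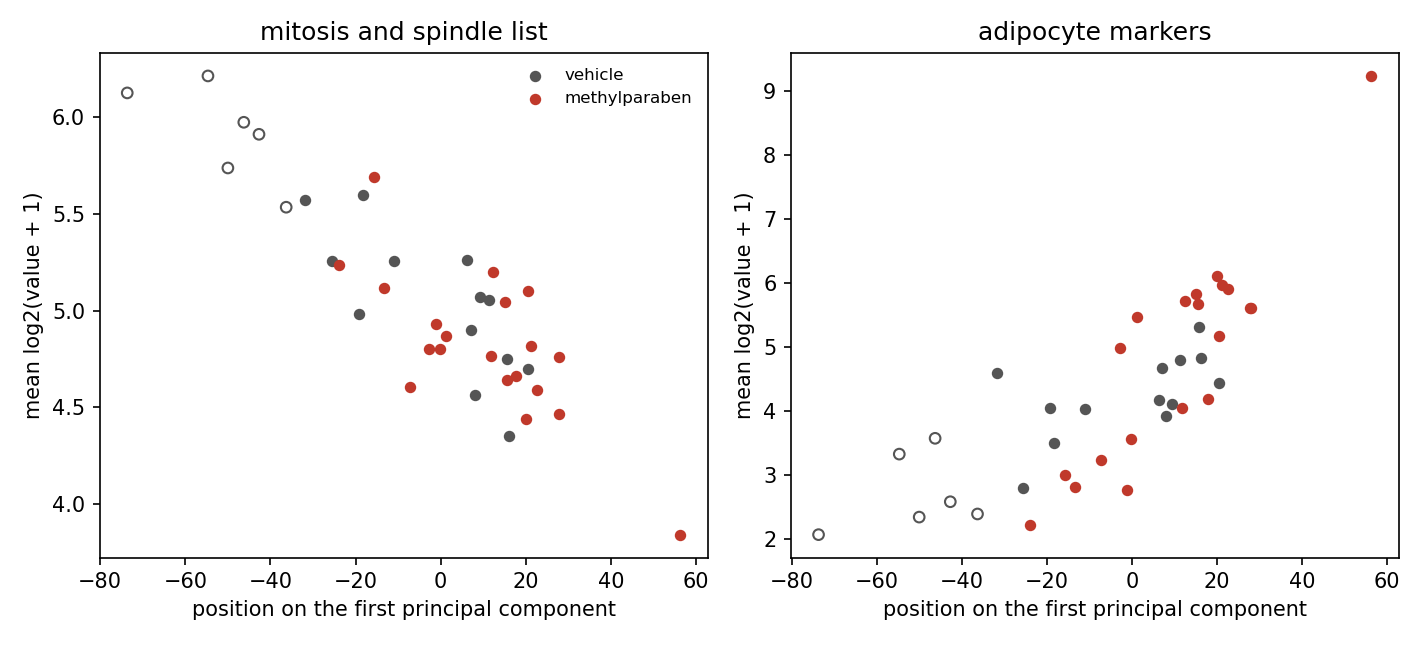
Each point is 1 of the 39 libraries, placed by its position on the first principal component of all tested genes (x axis, arbitrary units). The y axis is the mean log2(value + 1) of the mitosis and spindle list (left) or of the adipocyte markers (right), and open circles are the 6 vehicle libraries among the 7 lowest on the component. Both lists entered the component, so the plots describe the libraries and test nothing: the open circles sit at the mitosis-high, fat-low end, and methylparaben replicate 5 sits alone at the other.

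The difference between the groups was spread over many genes in small steps. With limma on log2(value + 1), 191 of 14487 tested genes passed an adjusted p of 0.05 (1.32% of genes): 99 rose in methylparaben tumors (0.683%) and 92 fell (0.635%). Absolute log2 fold changes of these genes ran from 0.19 to 1.36, with a median of 0.47. The median over all tested genes was 0.01, and 51.2% of them lay above 0. An unadjusted p under 0.05 was reached by 3206 genes, 1712 above 0 and 1494 below. Under median-of-ratios scaling 109 rose and 62 fell, and under quantile normalization 88 rose and 136 fell. On recovered reads edgeR called 243 that rose (1.68%) and 336 that fell (2.32%), and DESeq2 called 269 and 371. Of the 191 genes, 178 also passed by edgeR and 183 by DESeq2. With the 39 libraries of the 2 groups alone, limma called 2 genes (0.0138%), Irs1 and Tppp. The 191 genes had unadjusted p-values between 2.47e-06 and 0.00286 in that fit.

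**Figure D2:**
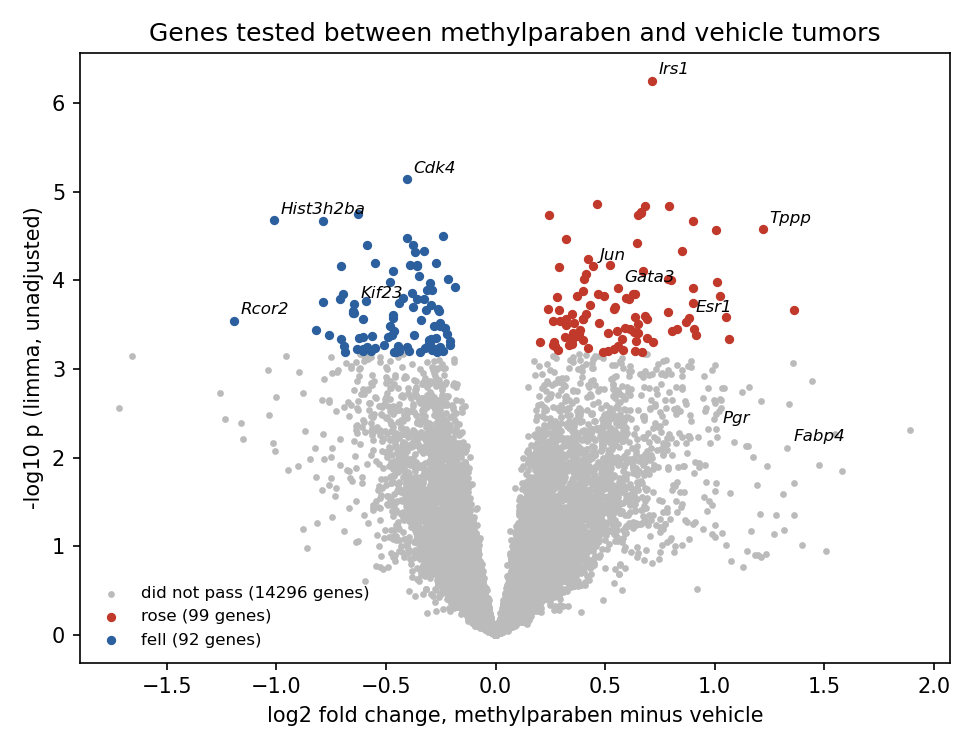
Every point is 1 of the 14487 tested genes, with the log2 fold change of methylparaben minus vehicle on the x axis and the unadjusted limma p as -log10 on the y axis. Red points rose and blue points fell at an adjusted p under 0.05. Irs1 stands above all other genes, and genes with larger folds such as Fabp4 and Pgr did not pass.

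How many genes passed rested on single libraries. Leaving out 1 library at a time gave between 1 and 932 genes, and 26 of the 59 fits gave a number within 1.5 times of 191. Among vehicle tumors, the number fell to 1 without replicate 8, 2 without replicate 10, 3 without replicate 14, 18 without replicate 7 and 23 without replicate 19. It was 34 without vehicle replicate 1, 63 without replicate 2 and 93 without replicate 18. It grew to 390 without vehicle replicate 6, 416 without replicate 3, 443 without replicate 15, 476 without replicate 12, 492 without replicate 9, 529 without replicate 17, 707 without replicate 11 and 932 without replicate 5. Among methylparaben tumors, it was 27 without replicate 6, 38 without replicate 8, 53 without replicate 5, 59 without replicate 11, 61 without replicate 7 and 63 without replicate 15. It was 67 without methylparaben replicate 13, 70 without replicate 3, 73 without replicate 2, 78 without replicate 17, 88 without replicate 10 and 95 without replicate 18. It grew to 359 without methylparaben replicate 19, 403 without replicate 1, 423 without replicate 4 and 519 without replicate 20. Without propylparaben replicate 1 it was 310. Of the 191 genes, 1 (Irs1) passed without vehicle replicate 8 and 53 passed without methylparaben replicate 5. A gene passed in a median of 40 of the 59 fits, and 45 genes passed in at least 50. In 20 of the 59 fits the library left out was a propylparaben tumor, which does not enter the 2 means of the contrast. In those fits 149 to 191 of the 191 genes passed, so counts out of 59 overstate how stable the contrast is. Without all 7 libraries at the low end of the first component 0 genes passed, and with scores of 6 other tissues and cell types as covariates 0 passed. In both fits all 191 genes lay on the same side of 0 as with all libraries. In the first, 163 had an unadjusted p under 0.05 and the median absolute log2 fold change was 0.29, and in the second these were 176 and 0.28. The 191 genes were picked in these same libraries, so their side of 0 and these p-values are no independent check.

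**Figure D3:**
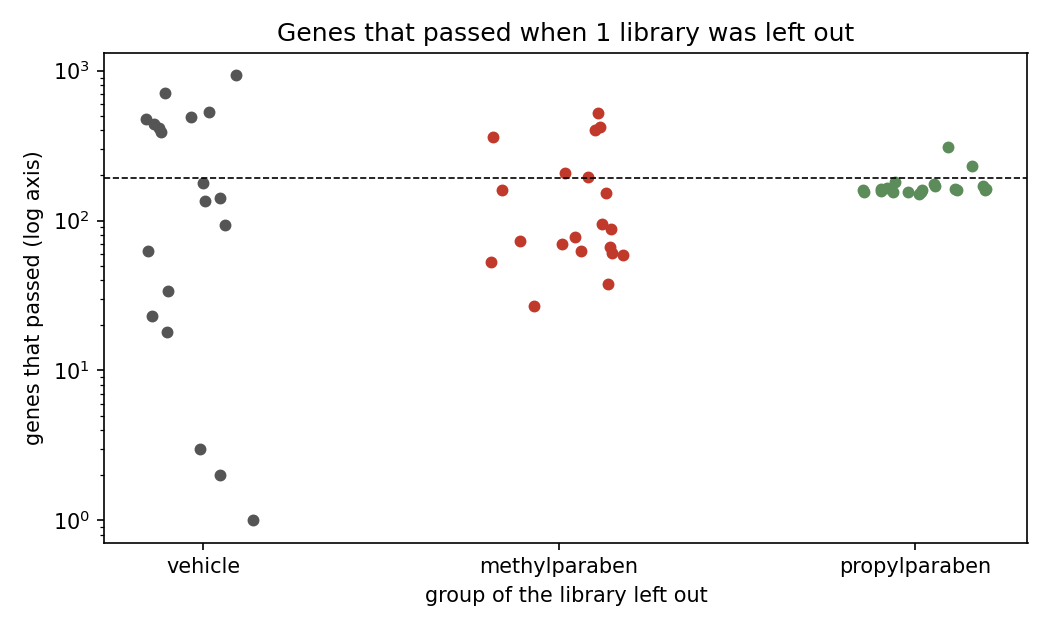
Each point is 1 fit that leaves out 1 library, placed by the group of that library (x axis), and the y axis (log scale) gives the number of genes that passed. The dashed line marks the 191 genes of the fit with all 59 libraries. Without a vehicle library the number ran from 1 to 932.

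Irs1 gave the smallest p-value and was the one gene called in all 59 fits that leave out a library. It encodes insulin receptor substrate 1, the docking protein that the insulin and IGF1 receptors phosphorylate and that then recruits PI3K. The gene lies at chr1:82233101-82291416 on the minus strand (GRCm38). In vehicle tumors its normalized count ran from 29.99 to 146 with a median of 56.97. In methylparaben tumors it ran from 68.8 to 158 with a median of 103. The ranges overlap in the middle and vehicle replicate 5 held the highest vehicle value, but all 20 methylparaben tumors lay above the vehicle median. The mean rose from 65.9 ± 27.5 to 103 ± 20.4 (SD, n = 19 and 20; log2 0.72 ± 0.13 SE, limma adjusted p = 0.00806). It was 0.49 on the log2 scale without the 7 libraries and 0.44 with the composition scores. With the 39 libraries alone Irs1 passed (limma adjusted p = 0.0358), and so it did by edgeR (0.0113) and DESeq2 (0.00309). Over the 59 fits that leave out a library its log2 fold change stayed between 0.66 and 0.78.

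Intronic reads of Irs1, counted apart from those of the gene, also lay higher. They ran from 72.8 to 244 in vehicle and from 147 to 430 in methylparaben tumors, in normalized counts (log2 0.67 ± 0.14, limma adjusted p = 0.0515). That misses the threshold by little, and the same libraries gave both tables. The gene overlaps Gm9747 on the other strand, and the strand setting of the counting is not given in the sources used here.

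**Figure D4:**
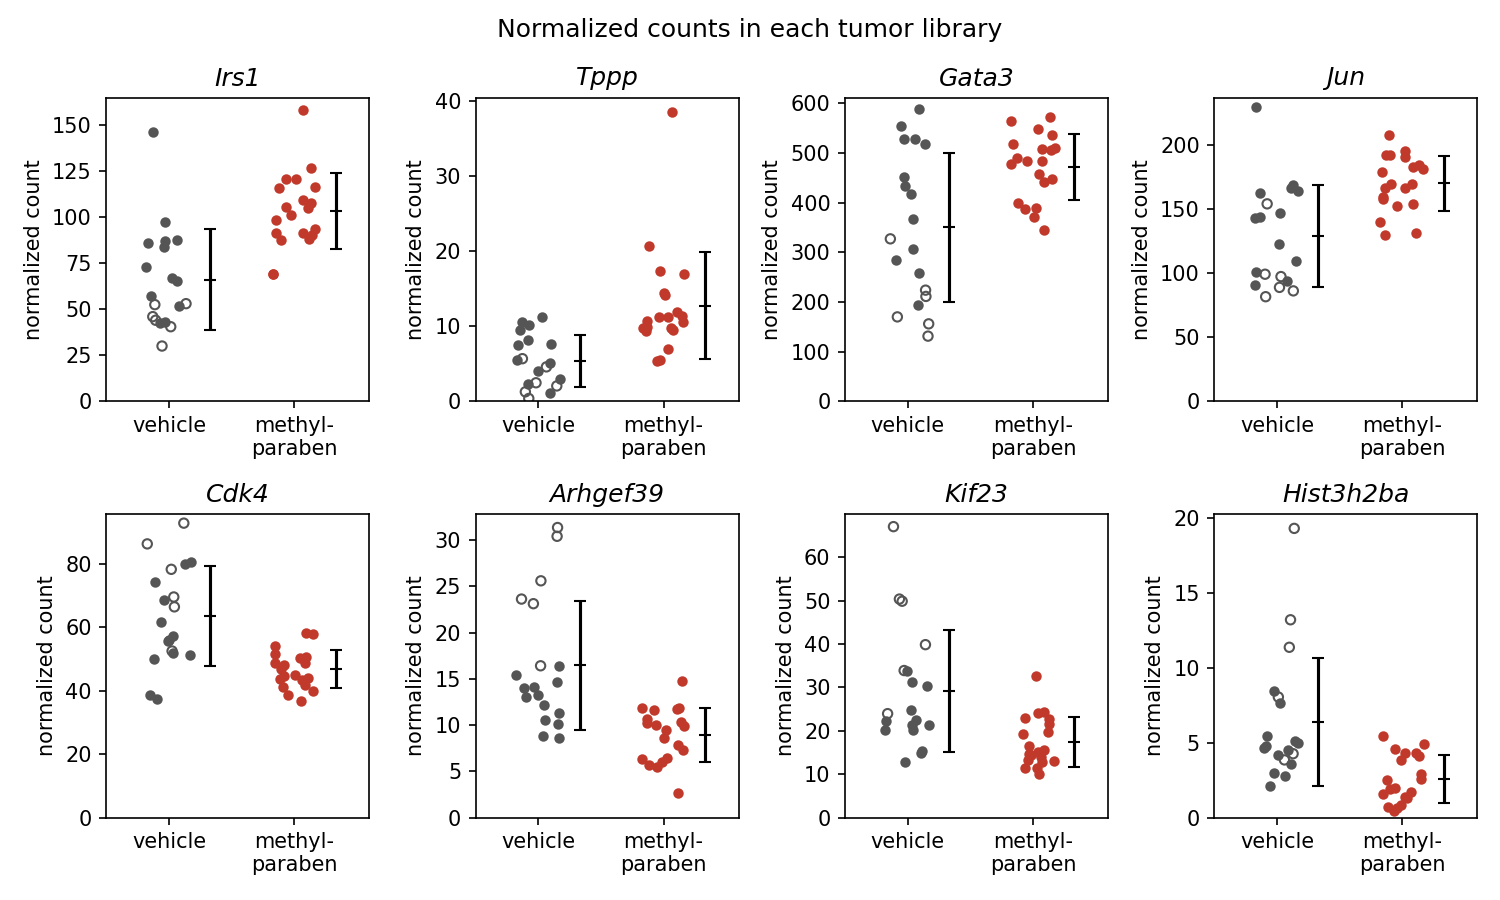
Normalized counts (y axes, from 0) of 8 genes in each vehicle and methylparaben library, with the mean and SD beside the points. Open circles are the 6 vehicle libraries among the 7 lowest on the first principal component. All 20 methylparaben points of Irs1, Tppp, Gata3 and Jun lie above the vehicle median and all 20 of Cdk4 below it, while the ranges of the groups overlap in every panel.

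Grb10, Pik3r1 and Pik3r3 of the insulin and IGF pathway passed beside Irs1. Of 21 tested members of that list, Irs1 included, 3 rose and 1 fell, against 0.683% and 0.635% of all tested genes. The median log2 fold change of the list was 0.18 (0.08 without the 7 libraries, 0.05 with the composition scores). Grb10, an adaptor that binds the insulin and IGF1 receptors and dampens their signal, ran from 8.22 to 53.95 in vehicle and from 15.3 to 71.7 in methylparaben tumors. Its medians were 22.3 and 39.97, and 19 of 20 methylparaben tumors lay above the vehicle median (log2 0.69 ± 0.18, limma adjusted p = 0.0400). Pik3r1, which encodes the p85 alpha regulatory subunit of PI3K, rose by 0.47 ± 0.12 (limma adjusted p = 0.0404). Pik3r3, another regulatory subunit of PI3K, went the other way, from a median of 37.5 in vehicle to 23.7 (fell by 0.71 ± 0.19 on the log2 scale, limma adjusted p = 0.0460). The receptors did not pass: Insr was at log2 0.29 (limma adjusted p = 0.0900) and Igf1r at 0.37 (0.230). Nor did the ligand gene Igf1 (0.57, 0.148), which was at -0.02 with the composition scores, and Irs2, the relative of Irs1, was at 0.22 (0.324). Igf2 was at 0 in all 39 libraries. Without methylparaben replicate 5, Grb10 (0.0579), Pik3r1 (0.0551) and Pik3r3 (0.0739) did not pass and Irs1 did (0.0214).

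Of 14 tested receptors for steroid and other hormones and prolactin 3 rose (all tested genes: 0.683%) and 0 fell, and 11 lay above 0 (median log2 0.23, and 0.12 without the 7 libraries). Esr1 encodes estrogen receptor alpha. It ran from 1.23 to 29.99 in vehicle (median 10.7) and from 4.35 to 44.5 in methylparaben tumors (median 18.3), with ranges that overlap over most of their length. Its log2 fold change of 0.88 ± 0.23 (limma adjusted p = 0.0400) was 0.42 without the 7 libraries and 0.47 with the composition scores. Thrb, the thyroid hormone receptor beta, had medians of 15.9 and 26.1 (log2 0.83 ± 0.22, limma adjusted p = 0.0440), and did not pass by edgeR (adjusted p = 0.0734). Nr3c1, the glucocorticoid receptor, changed little in size but evenly: vehicle tumors lay between 70.3 and 149, methylparaben tumors between 94.3 and 162, and all 20 were above the vehicle median of 93.4 (log2 0.26 ± 0.07, limma adjusted p = 0.0401). Pgr, the progesterone receptor and a classical target of estrogen receptor alpha, did not pass (log2 1.01 ± 0.34, limma adjusted p = 0.0865). It ran from 0.328 to 110.0 in vehicle, and without the 7 libraries its log2 fold change was 0.20. None of 17 tested estrogen receptor targets passed. Of them 15 lay above 0 with all libraries (median log2 0.32) and 13 without the 7 (median 0.13). With all libraries 10 of the 17 had an unadjusted p under 0.05, and edgeR called 0. Over all tested genes 51.2% lay above 0 and 3206 of 14487 had an unadjusted p under 0.05. Greb1, a direct target of the receptor, was at 11.2 ± 6.26 in vehicle and 11.2 ± 5.29 in methylparaben tumors.

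Luminal lineage factors included 3 that rose among 18 tested, against 0.683% of all tested genes (median log2 0.19, and 0.14 without the 7 libraries). Tox3, an HMG-box gene of luminal mammary cells, rose from a median of 1.86 to 4.55 (log2 0.90 ± 0.20, limma adjusted p = 0.0239). It was at 0.63 without the 7 libraries. Gata3, needed for the luminal state, ran from 131 to 588 in vehicle and from 345 to 573 in methylparaben tumors. The lowest methylparaben tumor thus lay above the vehicle median of 327, while the highest vehicle tumors were as high as any. The fold change of Gata3 was 0.56 ± 0.14 (limma adjusted p = 0.0355), and 0.23 without the 7 libraries. Stat5b, which carries prolactin and growth hormone signals, rose by 0.43 ± 0.11 (0.0374). Foxa1 (0.79 ± 0.31, limma adjusted p = 0.120) and Elf5 (0.25 ± 0.09, 0.0935) did not pass. Of the 14 luminal epithelial markers 0 passed with limma or edgeR, and their median was 0.09. Of them 6 had an unadjusted p under 0.05, against 3206 of 14487 tested genes. Muc15, a mucin of the milk fat globule, was the only gene of 14 milk and secretory genes that passed with limma (medians 164 and 213, log2 0.79 ± 0.20, limma adjusted p = 0.0389). By edgeR Muc15 did not pass (adjusted p = 0.0622), and the casein gene Csn1s1 was the 1 of the list called, as lower.

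Among the signaling lists, Jun and Fosl2, subunits of the transcription factor AP-1, rose out of 20 tested immediate early genes. Of these 20, 18 lay above 0 (median log2 0.25, and 0.15 without the 7 libraries). Over all tested genes 0.683% rose and 51.2% lay above 0. Jun ran from 81.7 to 230.0 in vehicle with a median of 123 and from 130.0 to 208 in methylparaben tumors with a median of 170.0. All 20 lay above the vehicle median, 1 vehicle tumor was the highest of all, and the fold change was 0.45 ± 0.10 (limma adjusted p = 0.0301; 0.30 without the 7 libraries and 0.30 with the composition scores). Fosl2 rose by 0.49 ± 0.14 (0.0492), kept its call in 15 of the 59 fits and did not pass by edgeR (adjusted p = 0.0607). Rora, which activates transcription in the circadian clock, was the 1 of 19 clock genes that passed (log2 0.55 ± 0.14, limma adjusted p = 0.0382). The median of the clock genes was 0.25, and 0.18 without the 7 libraries. Hey1, a repressor that Notch induces, rose from a median of 128 to 187 (0.54 ± 0.14, 0.0382), the 1 of 18 Notch genes to do so, but did not pass by edgeR (adjusted p = 0.0501). Fzd4, a Wnt receptor, was 1 of 20 (0.67 ± 0.19, 0.0492), and Msx1, a homeobox gene that BMP signals induce, 1 of 25 (0.90 ± 0.22, 0.0355). Peli2, a ubiquitin ligase of Toll-like receptor signaling, ran from 3.39 to 46.4 in vehicle and from 17.6 to 79.0 in methylparaben tumors (1.01 ± 0.22, 0.0261), and its introns moved by 0.98 ± 0.21 (0.0515). Without the 7 libraries the introns of Peli2 were at 0.54. Edem1, which hands misfolded proteins of the endoplasmic reticulum to degradation, rose by 0.24 ± 0.06 (0.0382). None of 16 ERBB genes passed with limma or edgeR, and 4 had an unadjusted p under 0.05, against 3206 of 14487 tested genes. Erbb4 came closest (0.81 ± 0.25, limma adjusted p = 0.0667).

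Cdk4 had the next smallest p-value after Irs1 and kept its call in 57 of the 59 fits. It encodes the cyclin D-dependent kinase that phosphorylates the retinoblastoma protein in G1, and lies at chr10:127063534-127067920 on the plus strand. Vehicle tumors ran from 37.3 to 92.9 with a median of 61.8. Methylparaben tumors ran from 36.8 to 58.2 with a median of 45.9, so all 20 lay below the vehicle median and the vehicle tumors were spread far more widely. Cdk4 fell by 0.40 ± 0.08 on the log2 scale (limma adjusted p = 0.0239), by 0.29 without the 7 libraries and by 0.26 with the composition scores. Among 22 tested G1 cyclins, kinases and inhibitors it was the only 1 that passed (all tested genes: 0.635% fell), and 15 lay below 0. Ccnd1, the cyclin partner of Cdk4, was at -0.14 (0.465). The reads of Cdk4 may include some of Tspan31, which overlaps it on the other strand.

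Genes of mitosis lay lower in methylparaben tumors. All 20 members of the mitosis and spindle list were below 0, with a median log2 fold change of -0.48, and 3 fell at the threshold (Kif23, Ccna2 and Ccnb1). All 18 mitotic kinesins and their partners were below 0 (median -0.49, 4 fell), as were all 27 kinetochore and centromere genes (median -0.40, 2 fell). Kif23 is in the first 2 of these lists. Over all tested genes 0.635% fell. By edgeR 11, 7 and 10 members of the 3 lists fell, against 2.32% of all genes. Without the 7 libraries the medians were -0.21, -0.23 and -0.21, again with every member below 0. With the composition scores they were -0.18, -0.21 and -0.11. The mitosis and spindle genes summed to between 540.2 and 2026 normalized counts in vehicle (median 1013) and to between 406 and 1495 in methylparaben tumors (median 761), so the ranges overlap over most of their length. In bulk tissue, fewer cells in mitosis and less of these transcripts in each cell cannot be told apart.

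Kif23 is the motor of the central spindle, needed for cytokinesis. It ran from 12.8 to 67.0 in vehicle (median 24.0) and from 9.96 to 32.7 in methylparaben tumors (median 15.3). It fell by 0.65 ± 0.16 (limma adjusted p = 0.0374), by 0.35 without the 7 libraries. Prc1, which bundles the microtubules on which Kif23 acts, had medians of 54.3 and 39.4 (fell by 0.51 ± 0.14, 0.0488). Kif15, a motor that helps to keep the spindle bipolar, had medians of 34.1 and 22.1 (fell by 0.65 ± 0.17, 0.0388). Kifc5b fell by 0.79 ± 0.20 (0.0371), and since it is a near copy of Kifc1 its reads are uncertain. Ccna2, the cyclin of S phase and mitotic entry, ran from 36.2 to 114 in vehicle and from 26.6 to 78.9 in methylparaben tumors (medians 64.3 and 42.7). Ccnb1, the mitotic cyclin, ran from 14.8 to 59.6 and from 5.98 to 31.2 (medians 29.6 and 19.7). For both cyclins 18 of 20 methylparaben tumors lay below the vehicle median, and without the 7 libraries they were at -0.26 and -0.34. Mki67, the usual marker of cycling cells, did not pass (log2 -0.37 ± 0.14, limma adjusted p = 0.103).

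At the kinetochore, Sgo1, which protects the cohesin that holds sister centromeres together, had medians of 23.7 and 15.0 (fell by 0.70 ± 0.17, limma adjusted p = 0.0355). Ska1, a subunit of the complex that ties kinetochores to microtubules, ran from 7.14 to 39.03 in vehicle and from 3.32 to 17.4 in methylparaben tumors, all 20 below the vehicle median of 21.02 (fell by 0.69 ± 0.19, 0.0488). Trip13, an ATPase of the spindle checkpoint, fell by 0.62 ± 0.17 (0.0456). Arhgef39, a guanine nucleotide exchange factor, ran from 8.56 to 31.4 in vehicle and from 2.66 to 14.8 in methylparaben tumors (fell by 0.79 ± 0.17, limma adjusted p = 0.0239) and kept its call in 56 fits. Fbxo5, an inhibitor of the anaphase-promoting complex, and Ncapg of condensin are named for their promoters and were picked after their values were seen. They were at -0.60 and -0.59 (limma adjusted p = 0.0492 and 0.0491).

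All 23 DNA replication genes were below 0 (median -0.32, 1 fell), and 22 of them without the 7 libraries (median -0.13). Over all tested genes 0.635% fell and 51.2% lay above 0. Cdt1, which licenses replication origins, ran from 16.4 to 48.1 in vehicle and from 15.7 to 30.9 in methylparaben tumors. Its highest methylparaben value equaled the vehicle median to 3 digits, and 19 of 20 lay below it (fell by 0.47 ± 0.12, limma adjusted p = 0.0400). All 14 nucleotide synthesis genes were below 0 too (median -0.28, and -0.12 without the 7 libraries), and 2 fell. Dnph1, which removes a damaged deoxynucleotide, had medians of 6.95 and 3.76 (fell by 0.71 ± 0.18, 0.0355), and Dctpp1, a dCTP pyrophosphatase, 24.9 and 18.8 (fell by 0.44 ± 0.12, 0.0492). Of 21 homologous recombination and crosslink repair genes 20 were below 0 and 1 fell, Parpbp, an inhibitor of recombination (medians 7.39 and 3.76, -0.71 ± 0.17, limma adjusted p = 0.0301). The median of the 21 was -0.32. Without the 7 libraries it was -0.13, with 17 below 0. Among 22 histone genes the H2B gene Hist3h2ba fell, from 2.11 to 19.3 in vehicle (median 4.78) to 0.432 to 5.46 in methylparaben tumors (median 2.23). Its fold change was -1.01 ± 0.22 (limma adjusted p = 0.0239), and -0.75 without the 7 libraries. Hist3h2ba kept its call in 56 of the 59 fits.

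Promoter windows are shown for Irs1, which led the genes that rose, and for 5 genes of mitosis that fell, since promoters of cell cycle genes often share short boxes. The 5 were picked after their matches were seen. The windows come from RefSeq (GRCm38.p6) and run from 250 bases before to 50 bases after a start site, with 74 of the 92 genes that fell and 72 of the 99 that rose found in the table. Capitals mark CCAAT (the box of the factor NF-Y), TTTGAA (the cell cycle homology region), the E2F forms TTTCCCGC, TTTCGCGC, TTTGCCGC and TTTGGCGC, and the E-box CACGTG, each on either strand. Sequences are written 5′ to 3′ on the gene's strand. The windows lie at chr1:82291390-82291689, minus strand (Irs1), chr9:61946750-61947049, minus strand (Kif23), chr7:80294201-80294500, plus strand (Prc1), chr10:5805416-5805715, minus strand (Fbxo5), chr5:45669675-45669974, plus strand (Ncapg) and chr13:100786437-100786736, minus strand (Ccnb1).
Irs1: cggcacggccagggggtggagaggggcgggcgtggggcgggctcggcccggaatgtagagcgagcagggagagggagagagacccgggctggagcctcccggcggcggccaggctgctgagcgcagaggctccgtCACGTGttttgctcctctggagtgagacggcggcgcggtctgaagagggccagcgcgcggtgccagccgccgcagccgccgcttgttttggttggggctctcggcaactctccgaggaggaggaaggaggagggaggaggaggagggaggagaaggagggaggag
Kif23: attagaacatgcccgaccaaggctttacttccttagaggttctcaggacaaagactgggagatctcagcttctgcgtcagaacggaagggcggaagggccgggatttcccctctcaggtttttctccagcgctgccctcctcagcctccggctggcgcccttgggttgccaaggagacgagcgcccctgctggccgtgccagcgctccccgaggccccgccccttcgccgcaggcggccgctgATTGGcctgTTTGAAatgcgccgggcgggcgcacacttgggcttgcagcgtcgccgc
Prc1: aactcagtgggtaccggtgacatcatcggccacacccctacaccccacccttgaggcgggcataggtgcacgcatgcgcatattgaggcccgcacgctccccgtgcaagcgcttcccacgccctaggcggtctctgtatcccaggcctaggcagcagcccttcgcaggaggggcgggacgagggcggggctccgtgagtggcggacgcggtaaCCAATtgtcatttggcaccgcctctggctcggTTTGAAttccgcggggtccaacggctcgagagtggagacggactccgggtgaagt
Fbxo5: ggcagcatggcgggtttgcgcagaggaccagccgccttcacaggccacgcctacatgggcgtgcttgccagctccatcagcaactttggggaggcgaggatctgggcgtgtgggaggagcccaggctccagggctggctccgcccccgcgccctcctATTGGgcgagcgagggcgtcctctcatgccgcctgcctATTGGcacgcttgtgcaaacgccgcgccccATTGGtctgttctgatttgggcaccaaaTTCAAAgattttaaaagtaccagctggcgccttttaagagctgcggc
Ncapg: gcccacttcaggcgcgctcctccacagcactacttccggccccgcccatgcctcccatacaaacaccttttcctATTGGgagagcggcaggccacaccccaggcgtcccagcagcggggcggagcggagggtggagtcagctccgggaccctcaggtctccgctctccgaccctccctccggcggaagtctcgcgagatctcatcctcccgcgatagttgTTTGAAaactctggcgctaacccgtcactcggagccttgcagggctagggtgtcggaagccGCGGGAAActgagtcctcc
Ccnb1: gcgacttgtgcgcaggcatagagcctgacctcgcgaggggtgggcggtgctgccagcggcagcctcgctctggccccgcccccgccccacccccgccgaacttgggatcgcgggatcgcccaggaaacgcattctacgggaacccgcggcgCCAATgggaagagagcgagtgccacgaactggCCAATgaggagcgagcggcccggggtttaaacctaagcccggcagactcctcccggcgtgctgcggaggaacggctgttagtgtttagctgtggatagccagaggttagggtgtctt

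Shares are given for the windows of genes that fell (92), of genes that rose (95), of all tested genes (13552) and of the whole table (32851). CCAAT was in 52.2% of windows of genes that fell, 29.5% of those that rose, 37.5% of those tested and 37.4% of all. TTTGAA was in 16.3% of windows of genes that fell, 7.37% of those that rose, 12.3% of those tested and 17.9% of all. Both boxes together were in 11 windows of genes that fell (12%), in 0 of genes that rose, in 4.86% of those tested and in 6.95% of all. Prc1 and Terf2 each gave more than 1 of the 11. Kif23, Prc1, Fbxo5 and Ncapg carried both, Ncapg an E2F form as well, and Ccnb1 carried CCAAT at 2 places and no TTTGAA. In the mitosis and spindle list as a whole, 10 of 16 windows held both (62.5%). An E2F form was in 4.35% of windows of genes that fell, 2.11% of those that rose, 3.73% of those tested and 2.26% of all, and in 11 of the 22 windows of DNA replication genes. The E-box was in 12%, 9.47%, 9.61% and 7.15%. The palindromic estrogen response element, GGTCANNNTGACC, was in 0 windows of either group, in 1 window of those tested (0.00738%) and in 0.0700% of all. Matches are so rare that 0 among the windows of either group says nothing about them. These are matches of letters and no test was run on them.

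Outside the cell cycle, Rcor2 had the largest fall in size of the genes that passed. It encodes a member of the CoREST family of corepressors, which carry the histone demethylase LSD1. It ran from 2.14 to 49.3 in vehicle (median 11.8) and from 1.63 to 12.9 in methylparaben tumors (median 4.004), and 19 of 20 lay below the vehicle median. Its fold change of -1.19 ± 0.31 (limma adjusted p = 0.0401) was -0.61 without the 7 libraries. Hmg20b, another subunit of LSD1 complexes, fell by 0.27 ± 0.07 (0.0460). The other 15 tested corepressor genes did not pass with limma, and the median of the list was -0.01. By edgeR 3 genes of the list fell. Over all tested genes 0.635% fell with limma and 2.32% by edgeR. Egln3, a prolyl hydroxylase that responds to hypoxia, had medians of 88.6 and 48.7 (fell by 0.76 ± 0.20, limma adjusted p = 0.0456), and it was at -0.34 without the 7 libraries. None of the other 19 hypoxia and glycolysis genes passed with limma, and that list's median was -0.09 (0.05 without the 7 libraries). By edgeR 2 genes of that list fell. Dgke, a diacylglycerol kinase, fell from a median of 8.10 to 5.68 (0.63 ± 0.13, limma adjusted p = 0.0239). It was at -0.42 without the 7 libraries and at -0.65 with the composition scores.

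Cebpz and Wdr43, nucleolar factors of ribosome assembly, were also among the 92 genes that fell. Both were picked after their values were seen, so they say nothing of other genes with that role. Cebpz went from 93.4 ± 9.86 to 79.0 ± 8.35 (SD, n = 19 and 20; fell by 0.24 ± 0.05, limma adjusted p = 0.0272), and it was at -0.21 without the 7 libraries and at -0.23 with the composition scores. Wdr43 went from 130.2 ± 22.1 to 107 ± 10.4, with all 20 methylparaben tumors below the vehicle median. The 20 tested cytosolic ribosomal protein genes had a median of -0.12. Of them 0 passed with limma or edgeR, and 9 had an unadjusted p under 0.05, against 3206 of 14487 tested genes.

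Some of the genes that passed most often across single left-out libraries are in none of the lists. Otud1, a deubiquitinase, ran from 4.21 to 22.3 in vehicle (median 6.99) and from 7.69 to 20.6 in methylparaben tumors (median 14.3), all 20 above the vehicle median (log2 0.66 ± 0.14, limma adjusted p = 0.0239). Smcr8, which partners C9orf72 in a complex that acts in autophagy, ran from 11.9 to 22.7 and from 13.8 to 25.3 (0.32 ± 0.07, 0.0272). Its log2 fold change was 0.32 without the 7 libraries and 0.31 with the composition scores, the same size as in the full fit. Hcar2, a receptor for hydroxycarboxylic acids and niacin, had medians of 4.47 and 7.56 (0.68 ± 0.15, 0.0239; 0.58 without the 7 libraries). Gprin3 had medians of 4.78 and 8.96 (0.66 ± 0.14, 0.0239; 0.54 without the 7 libraries and 0.66 with the composition scores). Arhgef6, which activates the GTPases Rac and Cdc42, had medians of 115 and 157 (0.65 ± 0.14, 0.0239) and was at 0.26 without the 7 libraries. Camk2d, a calcium-dependent kinase (0.46 ± 0.10), Tmem45a (0.79 ± 0.17) and Rc3h1, an RNA-binding protein that shortens the life of mRNAs (0.25 ± 0.05), were at the same adjusted p of 0.0239. Each of these 8 genes kept its call in 56 or 57 of the 59 fits.

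Tppp, which promotes the assembly of tubulin, was the other gene that passed with the 39 libraries alone (limma adjusted p = 0.0417). Vehicle tumors ran from 0.385 to 11.2 (median 5.11) and methylparaben tumors from 5.32 to 38.5 (median 10.9). No methylparaben tumor lay below the vehicle median, and the log2 fold change of 1.22 ± 0.27 (limma adjusted p = 0.0261) was 0.89 without the 7 libraries and 0.71 with the composition scores. Mme, a membrane peptidase of myoepithelial and stromal cells, had medians of 51.3 and 78.6 (0.85 ± 0.19, 0.0286). Kcnd2, a potassium channel gene, had medians of 2.94 and 8.29 (1.01 ± 0.24, 0.0342). It was the only 1 of 23 tested channel genes that passed (all tested genes: 0.683% rose). The homeobox gene Dlx5 (0.87 ± 0.23, 0.0404) and Samd5 (0.81 ± 0.21, 0.0443) passed with limma and not by edgeR (adjusted p = 0.0534 and 0.0811). Also higher was Abcb1a, a drug efflux pump (0.80 ± 0.19, 0.0342). Tcf7l1, a repressor of Wnt targets, fell from a median of 27.1 to 18.5 (-0.65 ± 0.17, 0.0389).

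Of 27 genes for enzymes that could act on the ester, among them carboxylesterases, sulfotransferases and glucuronosyltransferases, 8 had a mean of at least 1. A further 7 (Ces1e, Ces1g, Ces2c, Ces3b, Glyat, Ugt1a1 and Ugt2b34) were at 0 in all 39 libraries. The 27 genes summed to between 56.4 and 89.3 normalized counts in vehicle (median 75.5) and to between 57.5 and 707 in methylparaben tumors (median 83.5), and the highest value belonged to the fat-rich methylparaben replicate 5. Of the 8 tested genes 6 were above 0 and 6 had an unadjusted p under 0.05, with a median of 0.56 (0.19 without the 7 libraries, 0.44 without methylparaben replicate 5 and 0.01 with the composition scores). Over all tested genes 51.2% were above 0 and 3206 of 14487 had an unadjusted p under 0.05. With limma 0 of the 8 rose and 1 fell (all tested genes: 0.683% and 0.635%). By edgeR 3 rose, the carboxylesterase genes Ces1d and Ces1f and the hormone-sensitive lipase gene Lipe, and 1 fell (all tested genes: 1.68% and 2.32%). Lipe is also in the list of adipocyte markers, and edgeR was not run without methylparaben replicate 5. The gene that fell in both was Faah, a hydrolase of fatty acid amides. It ran from 0.935 to 19.0 in vehicle and from 1.24 to 8.43 in methylparaben tumors (medians 6.89 and 3.44, -0.82 ± 0.22, limma adjusted p = 0.0440). The value of Faah without the 7 libraries was -0.55. None of the 16 tested AhR and NRF2 targets passed with limma (median 0.02), 4 had an unadjusted p under 0.05, and edgeR called 1 in each direction.

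Markers of other tissues lay higher in methylparaben tumors, and no member of any such list passed with limma. edgeR called 11 adipocyte, 7 brown fat, 6 muscle, 4 keratinocyte, 1 endothelial and 0 fibroblast markers as higher. Over all tested genes 1.68% rose by edgeR. How far the edgeR calls rest on methylparaben replicate 5 or on another single library was not tested, since edgeR was run with all libraries only. An unadjusted limma p under 0.05 was reached by 12 of 13 adipocyte, 5 of 7 brown fat, 2 of 14 muscle, 2 of 9 keratinocyte, 6 of 14 endothelial and 12 of 14 fibroblast markers, against 3206 of 14487 tested genes. All 13 adipocyte markers were above 0, with a median log2 fold change of 1.19 (0.64 without the 7 libraries and 0.91 without methylparaben replicate 5). They summed to between 99.0 and 984 normalized counts in vehicle (median 364) and to between 165 and 16937 in methylparaben tumors (median 985). All 14 skeletal muscle markers were above 0, with a median of 1.18 (0.71 without the 7 libraries and 0.88 without methylparaben replicate 5) and sums from 9.63 to 1109 in vehicle (median 19.9) and from 10.98 to 10002 in methylparaben tumors (median 304). All 14 fibroblast markers were above 0 (median 0.57, and 0.16 without the 7 libraries), with sums from 386 to 5018 (median 1664) and from 1371 to 4827 (median 2487). All 7 tested brown fat markers were above 0, with a median of 0.69 that was 0.36 without methylparaben replicate 5. That library held a sum of 2272 of them, against a methylparaben median of 51.2. Of the endothelial markers 13 of 14 (median 0.28) and of the keratinocyte markers 9 of 9 (0.45) were above 0. Keratinocyte markers summed to 31.8 to 210 in vehicle (median 61.2) and to 27.9 to 1033 in methylparaben tumors (median 71.7). Methylparaben replicate 5 held the lowest of these sums, so the highest belonged to another library. Of 14 basal and myoepithelial markers 10 were above 0, with a median of 0.55 (0.28 without the 7 libraries and 0.12 with the composition scores). Of these, 8 had an unadjusted p under 0.05 and edgeR called 1, Trp63. Macrophage markers had a median of 0.21 with all libraries and of -0.13 without the 7. B and plasma cell markers had a median of 0.23, with 7 of 8 tested above 0 (0.14 and 7 of 8 without the 7 libraries), and Cd79a was at 0 in all 39 libraries. The median of 8 tested T and NK cell markers was 0.04 and that of 5 tested neutrophil markers -0.09. Closest to passing were Robo4 of endothelium (0.57 ± 0.16, limma adjusted p = 0.0520), Dio2 of brown fat (1.00 ± 0.29, 0.0536) and Dcn of fibroblasts (0.88 ± 0.25, 0.0537). Of 18 genes of PPAR gamma and its lipid targets, many of them active in fat, 17 were above 0 (median 0.63, and 0.08 with the composition scores). None passed with limma, 12 had an unadjusted p under 0.05 and edgeR called 11. Pparg itself was at 0.89 ± 0.26 (limma adjusted p = 0.0537).

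With scores of the adipocyte, muscle, B cell, T cell, macrophage and fibroblast markers as covariates, the medians of the mitosis and spindle list and of the estrogen receptor targets were -0.18 and 0.24. The medians of the 6 lists that make up the scores are near 0 in that fit by construction. The fits with and without the scores share all libraries, and what share of any gene's difference comes from tissue composition was not tested.

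**Figure D5:**
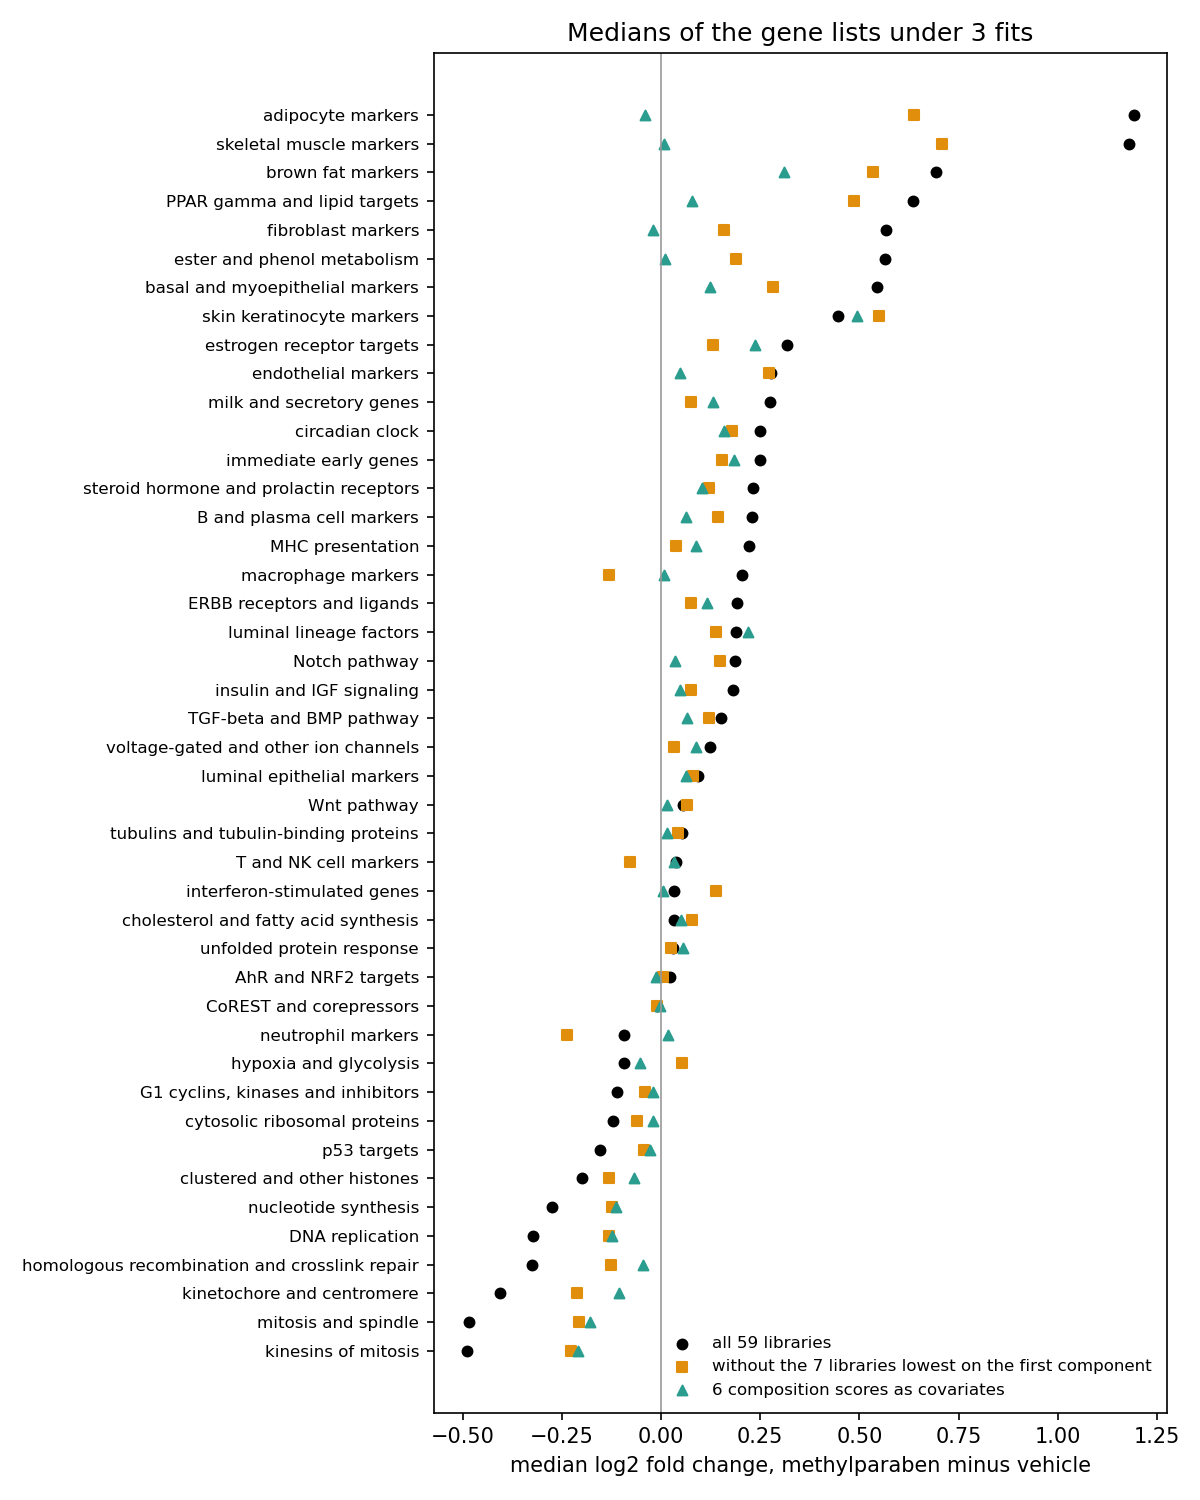
Median log2 fold change (x axis) of the tested members of each gene list with at least 5 of them (y axis), in the fit of all 59 libraries (circles), without the 7 low-end libraries (squares) and with 6 composition scores as covariates (triangles). The lists of other tissues lie at the top and those of the cell cycle at the bottom, and most medians are nearer to 0 in the other 2 fits.

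With all libraries, tumors of the vehicle group lay further from each other than those of the methylparaben group. The median distance of a library to the others of its group, over all tested genes on the log2 scale, was 86.1 ± 6.97 in vehicle and 76.8 ± 12.2 in methylparaben tumors (SD, n = 19 and 20; two-sided permutation test of 100000 resamples, p = 0.00502). The highest value, 117, belonged to methylparaben replicate 5. Without the 7 low-end libraries the difference was -1.14 (permutation p = 0.781). Distances within a group share libraries and were not recomputed in the resamples, so both p-values are only descriptive. A higher SD in vehicle than in methylparaben tumors was seen for 63.8% of all tested genes and for 83.8% of the 191 genes that passed.

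In introns 0 of 14281 genes passed (0%), and 1895 had an unadjusted p under 0.05, 1013 above 0 and 882 below. Leaving out 1 library gave 0 to 23. It was 23 without vehicle replicate 5, 11 without vehicle replicate 11, and 4 to 9 without vehicle replicate 4, 12, 15 or 17, methylparaben replicate 1, 4, 12 or 20, or propylparaben replicate 1, 2, 8, 15 or 16. On recovered intronic reads edgeR called 45 genes and DESeq2 called 56. The smallest p-values belonged to Irs1 and Peli2 (above), Prdm16, a factor of brown fat (1.55 ± 0.33), Ehd2 (1.09 ± 0.24) and Hpgd, which degrades prostaglandins (1.20 ± 0.26). Downward they belonged to Atad5, which unloads the sliding clamp after replication (-0.82 ± 0.17), the amino acid transporter gene Slc38a7 (-0.88 ± 0.19), the mitotic kinesin gene Kif4 (-0.998 ± 0.223), Gm15834 (-0.51 ± 0.12) and Plekhh2 (-0.47 ± 0.11). Limma adjusted p-values of these 10 lay between 0.0515 and 0.0863. The same libraries gave intron medians of -0.50 for the mitosis and spindle list (19 of 19 below 0) and -0.53 for the kinetochore genes (24 of 24 below 0). The difference between gene and intron level passed for 0 of 6667 genes (0%), with 418 at an unadjusted p under 0.05. Brpf3 (0.69 ± 0.17) and Cmtm7 (-0.49 ± 0.13) had the smallest p in each direction (limma adjusted p = 0.281 for both).

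The propylparaben libraries give a second ester, with a longer alkyl chain, set against the same 19 vehicle tumors, so the values of the 2 esters share their controls. Whether the doses matched is not in the labels. Between the esters 0 of 14487 genes passed with limma (0%), and 311 had an unadjusted p under 0.05, while edgeR called 21 (1 higher and 20 lower in propylparaben) and DESeq2 called 0. Irs1 had a log2 fold change against vehicle of 0.72 with methylparaben and of 0.64 with propylparaben. Its difference, propylparaben minus methylparaben, was -0.07 with a 95% interval from -0.33 to 0.18. For Cdk4 the values were -0.40 and -0.35 (difference 0.06, interval -0.11 to 0.22), and for Esr1 0.88 and 0.87 (-0.02, -0.47 to 0.44). Tppp was at 1.22 and 0.73 (-0.49, -1.02 to 0.04). Smcr8 was at 0.32 and 0.09, with an interval of the difference from -0.37 to -0.09, and Cebpz at -0.24 and -0.08, with 0.05 to 0.27. The intervals of Smcr8 and Cebpz hold for each gene alone, and neither difference passed over all genes (limma adjusted p = 0.999852 for both).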

How the data were processed

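RNA sequencing gave 1 library per tumor sample. Per the submitters' processing notes, bcl2fastq 2.20.0.422, STAR 2.6.1d, HTSeq 0.10.0 and the build GRCm38 were used. For the annotation, the strand setting, the scaling method and the definition of an intron the entry is: not given in the sources used here. Per gene, the authors deposited 1 table of normalized counts (used here as a signal per gene) for 55421 genes and 5 summary lines, and a like table for the introns of 33282 genes. Column headers are tumor numbers, which the sample titles carry. Of all values, 100% lay within 0.000001 reads of a whole number, so reads could be recovered. Each value is a whole read count times 1 factor per library. Of the gene IDs, 55240 had an entry in GENCODE M21, and 25976 genes were at 0 in all libraries. The share of reads outside features was 13.7% to 35.5% in the 39 libraries, that of reads aligned to several places 11.4% to 15.8%, and that of ambiguous reads 0.65% to 0.84%. These lines stayed out of the depths and tests given here, while the deposited scale counts them. Reads on introns ran from 345614 to 1059351, and mitochondrial genes held 2.73% to 11.5% of reads. Intervals cover the spread between libraries.

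Values were taken as log2(value + 1) for the 14487 genes with a mean value of at least 1 over the 59 libraries. They were tested with limma 3.58.1 (trend, R 4.3.3) on all 59 libraries, and p-values were adjusted by the Benjamini-Hochberg method over all tested genes. A fold change on this scale understates that of low genes. edgeR 4.0.16 (quasi-likelihood) and DESeq2 1.42.0 were run on the recovered reads, with the deposited scaling in edgeR. The limma fit was tested on simulated counts, drawn independently for each gene and library. They lack the variation that genes share across these libraries, so the simulation cannot show how the fit behaves under it. Of the 191 genes that passed, 90 overlap a gene on the other strand. A covariate score is the mean log2 value of a marker list. Alternatives covered the pseudocount, filter, scaling, weights, covariates, library set, tool and each left-out library. Genes were named by rule: up to 20 in each direction with the largest folds among those that passed, up to 4 members of each list that passed or else the member with the smallest p, 16 genes named in earlier results, the 5 smallest p in each direction for introns and gene minus intron, the 15 that passed most often with 1 library left out, and those that passed with the 39 libraries. Insr, Igf1r, Igf1, Irs2, Greb1, Ccnd1, Ces1d, Ces1f, Lipe, Csn1s1, Terf2 and Fabp4 lie outside it and were named after their values were seen, as were the others said to be so. Pathway, marker and gene lists and the comparison itself were chosen with earlier results of these data known. Some results are not reported here.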

Additional observations from a re-analysis of the deposited data

How the results depend on the processing

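The number of genes that passed, 191 with all libraries, moved most. It was 25 with no filter, 334 with a mean of at least 10, 80 with a mean of at least 100, 2 with the 39 libraries alone and 39 with array weights. It was 0 with the 6 composition scores, 5 without the 5 libraries with a low scaling factor and 0 without the 7 libraries lowest on the first component. edgeR gave 579 and DESeq2 640. Leaving out 1 library gave 1 to 932. For introns (0), a pseudocount of 10 gave 6, a mean of at least 10 gave 7, median-of-ratios scaling 8, array weights 2, edgeR 45 and DESeq2 56, and leaving out 1 library 0 to 23. For gene minus intron, leaving out 1 library gave 0 to 0. Between the esters edgeR gave 21, and leaving out 1 library 0 to 1. The difference in distance within groups was -1.14 (permutation p = 0.781) without the 7 libraries, against -9.39 with all. With the 6 composition scores the log2 fold changes of S100a8, Col16a1 and Atp5f1, which had not passed, turned to 0.0166, -0.0889 and 0.0212. The cause was not tested. In each of these settings those of the 191 genes that were tested kept their direction. They were picked in these same libraries, so this is no independent check. Depth limits the low genes: Tox3 and Msx1 were at 0 in some vehicle libraries. No paired analysis was possible because the replicate numbers follow accession order and pair no libraries.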
